A study of Homo sapiens with 11 samples.

Results

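The 44 transcripts described here had less RNA in every knockout library than in either wild-type library of HEK293T cells, a human line derived from embryonic kidney. The knocked-out gene is called CSAM in the labels and is now named PCIF1. There were 2 knockouts, labelled CSAM-KO#1 and CSAM-KO#2 and here called knockout 1 and knockout 2. The control was wild type (WT), and no other allele or agent is named for any group. RNA was sequenced in 2 libraries of each of the 3 genotypes, and ribosome footprints in 2 libraries of each knockout and 1 wild-type library. The labels do not say whether a knockout line is a single clone, how the gene was cut, or whether libraries of a group came from separate cultures, so the p-values reflect the spread among these libraries alone, which may be technical.

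PCIF1 adds a methyl group to the N6 position of the adenosine that directly follows the cap of many messenger RNAs. This cap-adjacent mark, m6Am, sits where the cap-binding factors that start translation and the enzymes that remove the cap act. A ribosome footprint is the short piece of RNA that a ribosome shields from nuclease, so the footprint count of a transcript depends on how much of its RNA there is and on how many ribosomes sit on it. RNA and footprints of 1 transcript can therefore be set side by side.

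Members were chosen on RNA alone. Levels are in CPM, counts per 1000000 counts of the library, taken over transcripts after rows with identical counts in all 11 libraries were merged. A member had a mean wild-type level of at least 2 CPM, and each of its 4 knockout RNA libraries held at most 60% of the lower wild-type library. Lines after 85000 and up to 87000 of the table and identifiers beginning uc002jwh were left out. The rule kept 44 of 37480 transcripts at that level (0.117%), out of 66016 merged transcripts in all. Another 8 transcripts met the limit but lay in what was left out. Because the RNA values chose the members, they are given below as a description, with no test. The files pair no gene names with the identifiers, and 0 of the 44 matched a gene symbol in the reference tables, so members are named by identifier, their functions are not given, and the level of the targeted gene itself was not checked here.

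Library totals after merging ran from 40346318 to 63551193 counts for RNA and from 8387752 to 17437453 for footprints. In footprints, 1 count was worth 0.114 CPM in the wild-type library and 0.0573 to 0.119 CPM in the knockout libraries. The median transcript of at least 2 CPM had 96.5% of its wild-type RNA level and 106% of its wild-type footprint level in the mean of the 4 knockout libraries.

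In line order the members fell into 18 runs, a run being members at most 20 lines apart, and neighbouring lines often repeated nearly the same counts. Of the 44 members, 39 lay in the 13 runs of 2 or more members, and 23 lay in the 5 longest runs. The longest run held 9 members, the next held 5, and there were 3 runs of 3, 8 runs of 2 and 5 single members. Counts of members below are therefore given with the number of runs that hold at least 1 of them. Whether transcripts of a run belong to the same gene is not given by the files, and members of a run are not independent.

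Wild-type RNA levels of the members were low to moderate. They ran from 2.39 to 166 CPM with a median of 3.58, against a median of 9.24 over all transcripts of at least 2 CPM, and 27 members (13 runs) were at 5 CPM or less. The mean of the 4 knockout libraries was at 0% to 44.5% of wild type, with a median of 20.6%. In 26 members (8 runs) it was under 25%, in 11 (6 runs) between 25% and 40%, and in 7 (4 runs) above 40%. In these bulk samples, fewer cells with an RNA and less RNA per cell cannot be told apart. Just inside the limit stood uc004fcs.4, whose highest knockout library was at 59.6% of the lower wild-type library, and uc010xmj.3 at 58.6%. Just outside stood uc001uli.4 at 60.3% and uc058jpz.1 at 61.2%.

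Footprints, which had no part in the choice, were mostly lower as well. In 31 of the 44 members (70.5%, in 12 of 18 runs) all 4 knockout footprint libraries were at most 60% of the wild-type library, against 0.902% of all transcripts of at least 2 CPM. All 4 lay below the wild-type library in 37 members of 14 runs (84.1%, against 21.4%). The 7 exceptions came from 4 runs. The median member kept 24.2% of its wild-type footprints in the mean of the knockouts.

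The same was tested with edgeR's quasi-likelihood test over all transcripts, with Benjamini-Hochberg adjustment and a threshold of 0.05. Of the 44 members, 26 (in 11 runs) had at least 10 counts in at least 2 of the 5 footprint libraries and were tested, which needs at least 1 knockout library above the minimum. Footprints fell in 18 of these 26 (7 runs) for the mean of the knockouts, where 6.67% of the 44410 transcripts tested fell. None (0) rose, where 4.6% of all transcripts did, and 0 rose at an unadjusted p under 0.05. DESeq2 with its filter on low means gave an adjusted p for only 2 of the 26, both from 1 run, and 0 of these rose. The median log2 change of the 26 was -2.13, beside 0.01 over all transcripts tested. Against wild type, each knockout alone also gave 18 of 26, where the share over all transcripts was 3.64% for knockout 1 and 8.67% for knockout 2. In neither did a member rise by edgeR (0 of 26, and 0 at an unadjusted p under 0.05), where 2.4% and 7.14% of all transcripts did. Here too DESeq2 gave an adjusted p for only 2 members in each, and 0 of these rose. Both comparisons share the wild-type library. Without a filter on low counts all 44 members were tested, and 27 of them (12 runs) fell, against 4.43% of 63479 transcripts. With 1 wild-type footprint library, its spread was assumed to be that of the knockout pairs.

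**Figure D1:**
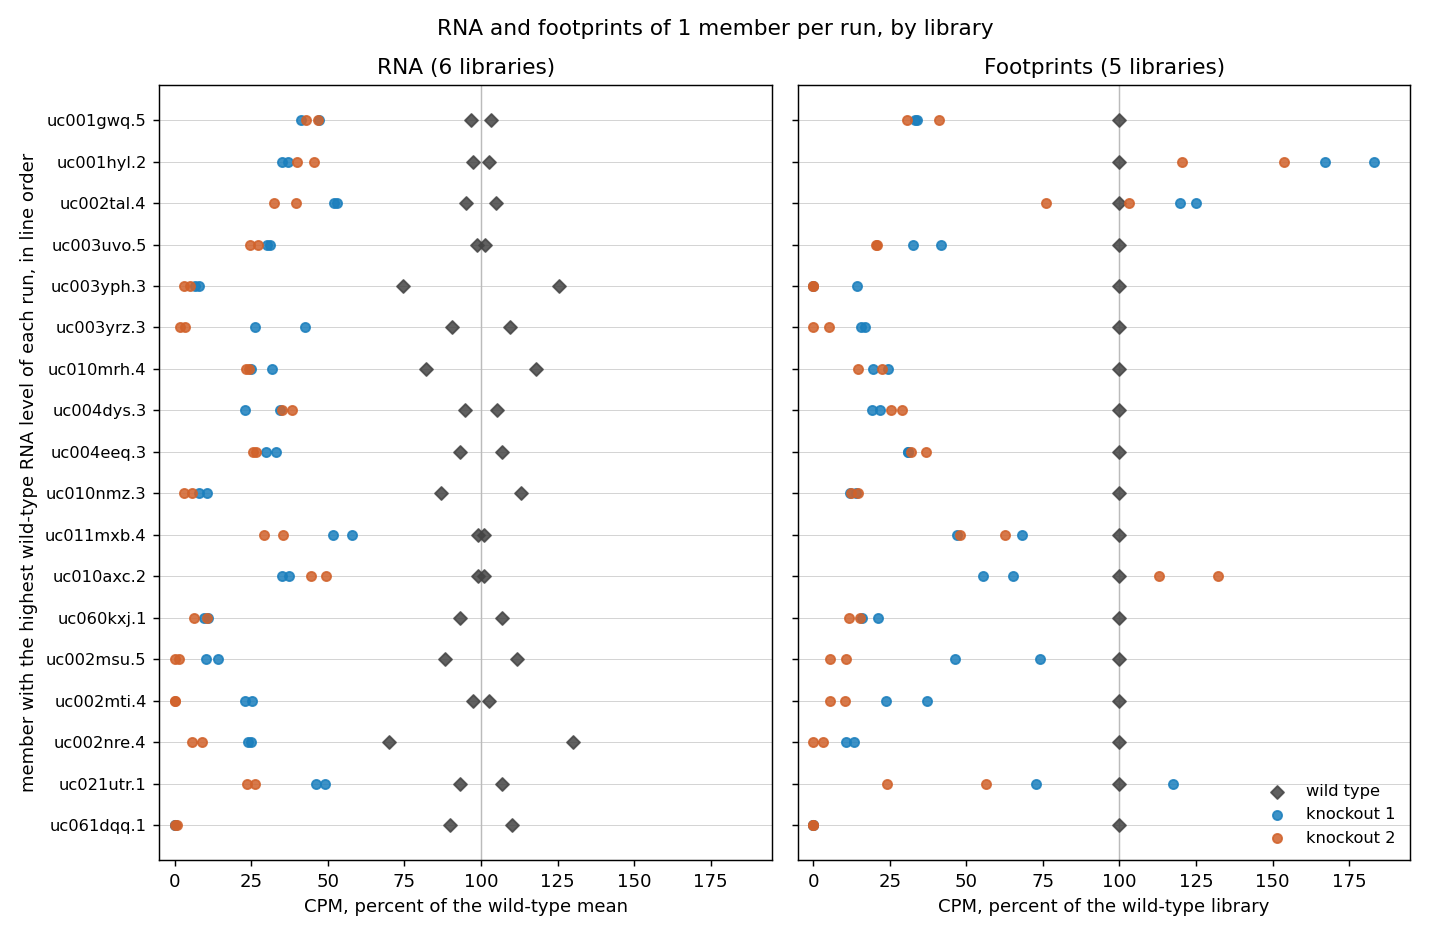
RNA (left) and footprint (right) levels of 1 member from each of the 18 runs, 1 point per library, as percent of the wild-type mean of 2 RNA libraries or of the single wild-type footprint library. All knockout RNA points lie left of the wild-type points by the choice of members, while the footprint points of uc001hyl.2, uc002tal.4, uc010axc.2 and uc021utr.1 reach or pass the wild-type library.

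The most abundant members formed a pair, uc004eep.4 and uc004eeq.3 (listed lengths 752 and 798). RNA of uc004eeq.3 was 177 and 155 CPM in the wild-type libraries, 55.1 and 49.4 in knockout 1 and 44.2 and 42.3 in knockout 2. Its footprints were 51.8 CPM in wild type, against 16.0 and 16.0 for knockout 1 and 16.5 and 19.1 for knockout 2. All 4 knockout libraries thus kept about the same reduced level in both assays, at 28.7% of wild-type RNA and 32.6% of wild-type footprints on average. With 454 wild-type footprint counts this was the best measured run, and its footprints fell by 1.72 on the log2 scale (SE 0.12, edgeR adjusted p = 2.81e-20). The RNA difference was -1.80, a plain log2 ratio of mean CPM. The footprint change also carries the TMM scaling of the edgeR fit, so the size of the gap between them is not exact. The partner of uc004eeq.3, uc004eep.4, gave a footprint change of -1.75 (SE 0.12).

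Among the 26 members that passed the filter, the largest fall was that of 3 transcripts on consecutive lines, uc004efw.5, uc004efx.5 and uc010nmz.3 (listed lengths 1091 to 1139). RNA of uc004efw.5 was 3.76 and 2.94 CPM in wild type, against 0.273 and 0.363 for knockout 1 and 0.195 and 0.0896 for knockout 2. Its footprints were 16.0 CPM in wild type, against 2.19 and 1.91 for knockout 1 and 1.95 and 2.19 for knockout 2. All 4 knockout footprint libraries were nearly level. Its RNA was lower in knockout 2 than in knockout 1, but on few counts (11 and 18 in knockout 1, 9 and 4 in knockout 2). The footprint change was -3.05 (log2, SE 0.23, edgeR adjusted p = 2.04e-19), beside an RNA difference of -3.86. This transcript also stood out in wild type: it had 4.77 footprint CPM per RNA CPM, more than 98.7% of transcripts of at least 2 CPM, whose median was 0.708.

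The run of 9 members spanned lines 155440 to 155457, with short listed lengths of 39 to 249. Its most abundant member, uc060kxj.1 (249), had 12.1 and 10.5 CPM of RNA in wild type, against 1.24 and 1.07 for knockout 1 and 0.716 and 1.19 for knockout 2. Footprints of uc060kxj.1 were 13.6 CPM in wild type, against 2.19 and 2.86 for knockout 1 and 1.61 and 2.08 for knockout 2, a log2 change of -2.78 (SE 0.24, edgeR adjusted p = 4.18e-16). Members of this run differed up to 3.78-fold in wild-type RNA level, yet all kept a similar share of it, from 8.87% to 11.2% of RNA and from 11.9% to 16.2% of footprints. Of the 9, the 8 that were tested fell in footprints, by log2 changes of -2.98 to -2.78. The ninth, uc060kxe.1, has the shortest listed length of all members (39), with 16 wild-type footprint counts and 3, 3, 2 and 1 in the knockouts. It was tested only without the filter on low counts, with a log2 change of -3.26 (SE 0.67, edgeR adjusted p = 8.19e-05).

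Footprints also fell in 2 further single members and 1 pair. The pair uc004dyt.3 and uc004dys.3 (listed lengths 441 and 496) had the largest fall of these. RNA of uc004dys.3 was 7.71 and 6.94 CPM in wild type, against 1.69 and 2.52 for knockout 1 and 2.80 and 2.58 for knockout 2, and its footprints were 4.34 CPM in wild type, against 0.951 and 0.835 for knockout 1 and 1.26 and 1.10 for knockout 2. Its footprint change was -2.14 (log2, SE 0.37, edgeR adjusted p = 9.9e-06), larger in size than the RNA difference of -1.61. In uc003uvo.5 (440) RNA was 2.42 and 2.36 CPM in wild type and 0.585 to 0.746 in the 4 knockout libraries. Its footprints were 3.65 CPM in wild type, against 1.52 and 1.19 for knockout 1 and 0.746 and 0.767 for knockout 2 (log2 change -1.93, SE 0.39, edgeR adjusted p = 1.92e-04). The third, uc001gwq.5 (118), had 2.50 and 2.67 CPM of RNA in wild type and 1.07 to 1.21 in the knockouts. Footprints of uc001gwq.5 were 2.51 CPM in wild type and 0.767 to 1.03 in the knockouts (log2 change -1.58, SE 0.46, edgeR adjusted p = 0.0127). DESeq2 without its filter on low means kept 14 of the 18 calls, and these 4 were the ones it lost.

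Other members, with 6 to 37 footprint counts in wild type, had too few counts in the knockout libraries to pass the filter. Lowest in RNA was the pair uc061dqq.1 and uc061dqr.1 (listed lengths 706 and 678). RNA counts of uc061dqr.1 were 168 and 114 in wild type, or 2.64 and 2.22 CPM, and 0 in all 4 knockout libraries, which is at least 146-fold lower when 3 counts over the 4 libraries are taken as the limit. A single count in knockout 2 was all that uc061dqq.1 had in the knockouts. Footprints of uc061dqr.1 were 6 counts in wild type and 0 in the 4 knockout libraries, and those of uc061dqq.1 were 7 and 0. At 6 wild-type counts the wild-type level itself spanned 0.251 to 1.49 CPM (exact binomial 95% interval, counting error only). Without a filter on low counts both passed, with edgeR adjusted p of 0.00789 and 0.00267.

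For uc003yph.3 (543) RNA was 8.10 and 4.81 CPM in wild type, against 0.421 and 0.504 for knockout 1 and 0.325 and 0.202 for knockout 2. Its wild-type libraries differed 1.68-fold here, but both were far above the knockouts. Footprints were 29 counts in wild type, against 0 and 4 for knockout 1 and 0 and 0 for knockout 2. Another pair, uc002nre.4 and uc010xrj.3 (1182 and 1150), was also lower in all knockout libraries and had the widest gap between wild-type libraries. RNA of uc002nre.4 was 7.08 and 3.82 CPM in wild type, against 1.31 and 1.35 for knockout 1 and 0.304 and 0.493 for knockout 2. Its footprints were 31 counts in wild type, against 4 and 4 for knockout 1 and 0 and 1 for knockout 2. Knockout 2 was the lower in both assays. In uc003yrz.3 (301) that split was wider, with 2.88 and 2.38 CPM of RNA in wild type, against 1.12 and 0.686 for knockout 1 and 0.0434 and 0.0896 for knockout 2, and footprint counts of 37, then 7 and 6, then 0 and 2. The pair uc004aud.3 and uc010mrh.4 (91 and 245) had 26.7% and 26.1% of wild-type RNA, and footprint counts of 11 and 17 in wild type against 1 to 5 in each knockout library. All 6 of these members were under the filter and fell without it (edgeR adjusted p from 1.89e-14 to 0.00947).

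**Figure D2:**
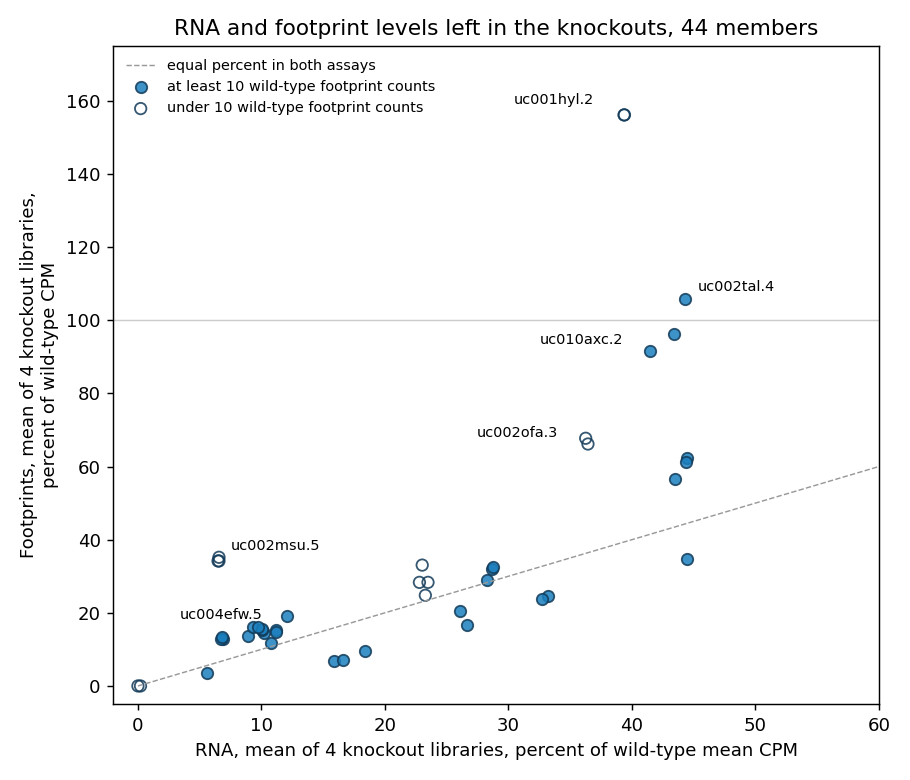
Footprint level against RNA level left in the knockouts (mean of 4 libraries, percent of wild type), 1 point per member, filled where the wild-type footprint library held at least 10 counts. Above the dashed line of equal percent lie 33 of the 44 points, many of them close to it at low RNA. Far above it lie uc001hyl.2, uc002tal.4 and uc010axc.2 at 39.4%, 44.3% and 41.5% of wild-type RNA. Also well above it are uc002msu.5 (6.49% of RNA, 34.2% of footprints) and uc002ofa.3 (36.4% and 66.2%). These 2 points rest on only 9 and 8 wild-type footprint counts and average unlike knockouts. Footprints left in knockouts 1 and 2 were 60.2% and 8.13% for uc002msu.5, and 95.2% and 37.1% for uc002ofa.3.

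In contrast, 8 of the 26 tested members, from 4 runs, did not pass the footprint test, and in 3 of these runs the footprints reached the wild-type level in some knockout library. The pair uc061mic.1 and uc002tal.4 (502 and 745) had the best counts among them. RNA of uc002tal.4 was 3.16 and 3.49 CPM in wild type, against 1.76 and 1.73 for knockout 1 and 1.32 and 1.08 for knockout 2. Footprints of uc002tal.4 were 4.68 CPM in wild type, from 41 counts, against 5.61 and 5.84 for knockout 1 and 3.56 and 4.82 for knockout 2. Knockout libraries thus lay on both sides of wild type, with a log2 change of -0.06 (SE 0.28, edgeR adjusted p = 0.933), while RNA stood at 44.3% of wild type.

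The 2 runs with the longest members also held footprints at the wild-type level in some knockout library. RNA of uc010axc.2, the longest member (5786), was 4.48 and 4.40 CPM in wild type, against 1.56 and 1.65 for knockout 1 and 2.19 and 1.97 for knockout 2. Its footprints were 2.74 CPM in wild type, against 1.52 and 1.79 for knockout 1 and 3.10 and 3.62 for knockout 2. Knockout 1 was below and knockout 2 above the wild-type library (log2 change of the mean -0.33, SE 0.36, edgeR adjusted p = 0.630). The pair uc001hyl.2 and uc057qqo.1 (4958 and 4940) had the lowest occupancy of all members in wild type. RNA of uc001hyl.2 was 9.77 and 10.3 CPM in wild type, against 3.72 and 3.51 for knockout 1 and 3.99 and 4.57 for knockout 2. Footprints were 5 counts in wild type, or 0.571 CPM with an interval of 0.185 to 1.33, and 0.688 to 1.05 CPM in the knockouts. All 4 knockout libraries were above the wild-type value and within its interval, so no difference was detectable at this depth (log2 change 0.51, SE 0.73, edgeR adjusted p = 0.725). Per RNA, uc001hyl.2 had 0.0570 footprint CPM in wild type, and 1.40% of transcripts of at least 2 CPM had less.

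The last run among these held uc011mxb.4, uc004fcs.4 and uc004fcp.3 (1267 to 1302), all close to the 60% limit in RNA. RNA of uc011mxb.4 was 2.56 and 2.51 CPM in wild type, against 1.31 and 1.47 for knockout 1 and 0.737 and 0.896 for knockout 2. Its footprints were 2.63 CPM in wild type, against 1.24 and 1.79 for knockout 1 and 1.26 and 1.64 for knockout 2, all below wild type. Its log2 change of -0.95 (SE 0.40, edgeR adjusted p = 0.116) did not pass. Under the filter, uc021utr.1 and uc002ofa.3 (504 and 423) had 8 wild-type footprint counts each and 2 to 9 in the knockouts, with 67.7% and 66.2% of the wild-type level left on average. Without the filter they had edgeR adjusted p of 0.648 and 0.609.

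Set side by side, the percent of wild-type footprints left was above the percent of RNA left in 33 of the 44 members (11 runs) and at or below it in 11 (7 runs). It was above in 64.4% of all transcripts of at least 2 CPM with a wild-type footprint count. Since the rule fixed low RNA values, nothing is read from these counts. On the log2 scale the footprint change minus the RNA difference ran, among tested members, from -0.53 in uc004dys.3 to 1.85 in uc001hyl.2. The footprint changes were scaled by TMM and the RNA differences by library totals only. These differences thus mix scalings, and they carry no test.

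The knockouts were not equal. In 32 members (13 runs) both RNA libraries of knockout 2 lay below both of knockout 1, where 34.4% of all transcripts of at least 2 CPM did, and in 4 members (3 runs) both of knockout 1 lay below both of knockout 2 (21.4%). The rule used these libraries, so these counts are only a description. The median member kept 28.5% of wild-type RNA in knockout 1 and 8.78% in knockout 2, although with 1 member per run the medians were 29.7% and 24.3%. The medians thus depended on whether members or runs were counted.

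In RNA, knockout 2 was also the lower in 4 runs that lay between lines 162969 and 166355, a stretch picked out after its values were seen. They held 12 members. Of these, uc002mti.4 (531) had 5.93 and 6.23 CPM of RNA in wild type, 1.54 and 1.39 in knockout 1, and 0 counts in both libraries of knockout 2, at least 184-fold lower with 3 counts over both libraries as the limit. Its footprints were 28 counts in wild type, against 8 and 10 for knockout 1 and 3 and 3 for knockout 2 (log2 change of the mean -2.83, SE 0.49, edgeR adjusted p = 1.09e-05). In the same run uc060tyh.1, uc060tyi.1, uc010xmj.3 and uc010dys.4 had 45.2% to 46.6% of wild-type RNA in knockout 1 and 1 count in all in knockout 2, and each had 6 to 8 footprint counts in wild type. All 4 had the same knockout footprint counts, 3 and 1 for knockout 1 and 3 and 3 for knockout 2. In CPM the knockouts overlapped (0.285 and 0.119 against 0.172 and 0.329), so these few counts show no order between them. The run of uc002msu.5, uc031rjk.1 and uc060twe.1 (715 to 736) had 12.3% to 12.4% of wild-type RNA in knockout 1 and 2 counts in knockout 2. Footprints of uc002msu.5 were 9 counts in wild type, against 8 and 4 for knockout 1 and 1 and 1 for knockout 2, too few for the filter, and without it the change did not pass (edgeR adjusted p = 0.0586).

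The direct footprint test of knockout 1 against knockout 2 called 2 of the 26 tested members. With 1 member in each direction (3.85%), this was near the share over all transcripts. Footprints of uc002mti.4 were higher in knockout 1 (log2 difference 2.01, SE 0.67, edgeR adjusted p = 0.0452), where 4.54% of all transcripts were, and those of uc010axc.2 were lower in knockout 1 (-1.01, SE 0.32, edgeR adjusted p = 0.029), where 3.78% were. Both differences had the same direction as in RNA. The calls were near the threshold: neither passed without replicate 1 of knockout 1 (adjusted p = 0.0703 and 0.272), replicate 1 of knockout 2 (0.381 and 0.0934) or replicate 2 of knockout 2 (0.0809 and 0.123), or by DESeq2. Without replicate 2 of knockout 1, uc010axc.2 passed (0.0476) and uc002mti.4 had too few counts to be tested.

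Listed lengths of the members were long on the whole. The unit of the column is not stated, and it had no part in the choice. The median was 593, against 288 over all transcripts of at least 2 CPM, and with 1 member per run it was 624.5. Of the 44, 11 (25%, in 5 runs) had a listed length over 800, against 14.3% of all, and 20 (45.5%, in 9 runs) one over 400 and up to 800, against 24.1%. Only 3 members were at 100 or less, of which 2 belonged to the run of 9. At the other end, 3 members of 2 runs (6.82%) exceeded 4000, where 0.219% of all transcripts did. No test was made over transcripts that share reads. The footprints of these 3 members did not pass the test.

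**Figure D3:**
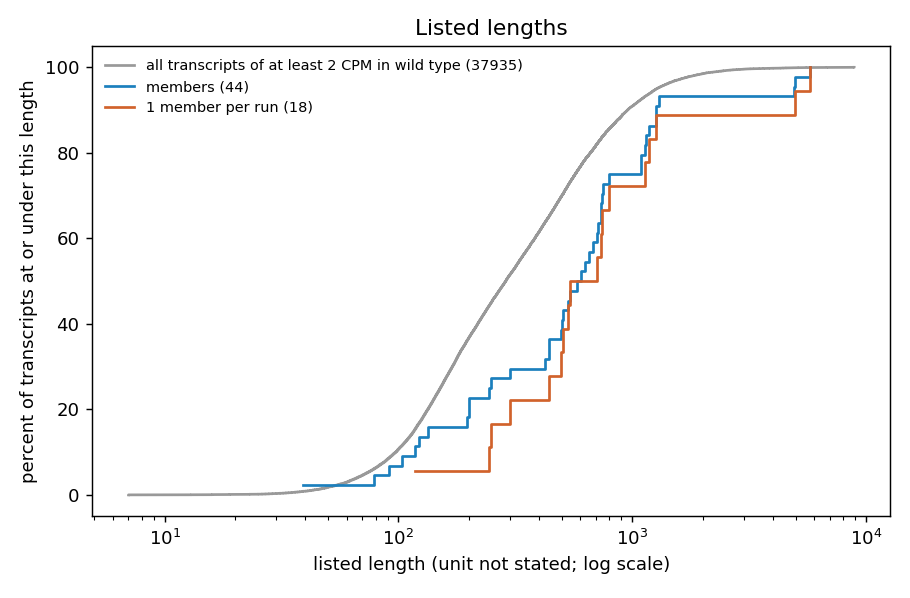
Share of transcripts at or under each listed length (log axis) for the 44 members, for 1 member per run, and for all 37935 transcripts of at least 2 CPM in wild type. The member curves lie right of the curve of all transcripts over most of the range, with medians of 593 and 624.5 against 288.

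Most transcripts beside the runs were near their wild-type level, but more of them were lower than among all transcripts. Within 20 lines of the runs lay 105 other transcripts of at least 2 CPM, and 73 of them kept 80% to 120% of their wild-type RNA in the mean of the knockouts. Below wild type were 77 of the 105 (73.3%, against 60.1% of all such transcripts). Below 60% were 12 (11.4%, against 0.612%), and 11 of these 12 lay beside the 4 runs between lines 162969 and 166355. No other transcript at that level lay inside a run. Around the 9-member run, for example, the 4 such transcripts within 20 lines were at 78.2% to 113% of wild type, and around the run of uc004efw.5 the 13 were at 69.6% to 111%.

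Beside the runs of uc002msu.5 and uc002mti.4 the edges differed by knockout. There uc002msp.2, a non-member, had 6.42 and 5.86 CPM of RNA in wild type, against 5.48 and 5.22 for knockout 1 and 1.67 and 1.52 for knockout 2. A second, uc060tyq.1, had 6.07 and 6.53 in wild type, against 5.48 and 5.41 for knockout 1 and 1.13 and 1.14 for knockout 2. Both were thus close to wild type in knockout 1 and low in knockout 2, which kept them outside the members. Beside the pair uc021utr.1 and uc002ofa.3, the 6 neighbours were lower in both knockouts, as uc002ofc.4 shows with 8.23 and 7.93 CPM in wild type, against 3.89 and 5.04 for knockout 1 and 1.76 and 1.81 for knockout 2. As a whole the stretch between lines 162969 and 166355 was not lower: its 671 transcripts of at least 2 CPM had a median of 97.8% of wild-type RNA in knockout 1 and 101% in knockout 2. What the transcripts around these lines share beyond their place in the table was not tested.

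**Figure D4:**
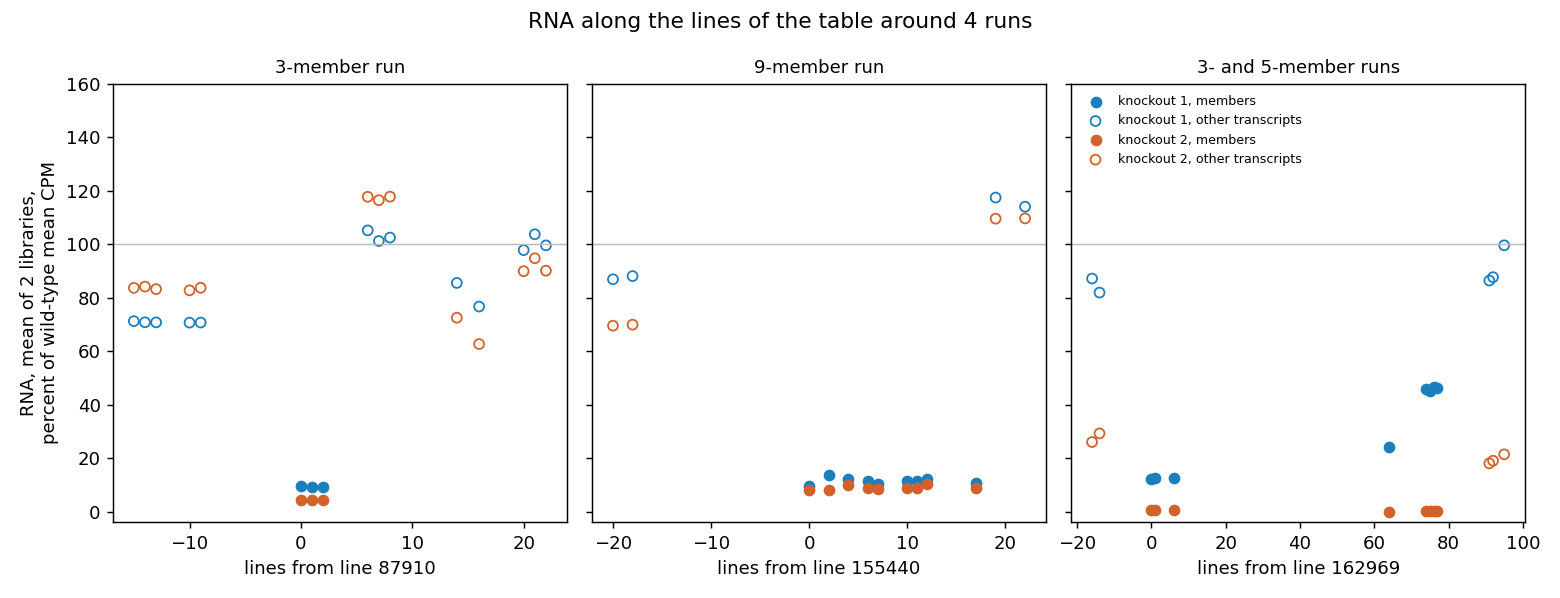
RNA of knockout 1 and knockout 2 (mean of 2 libraries, percent of the wild-type mean) against distance in table lines around 4 runs, filled for members and open for other transcripts of at least 2 CPM. Members of the first 2 panels are low in both knockouts beside neighbours far above them, and the neighbours in the last panel are near wild type in knockout 1 and low in knockout 2.

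The wild-type RNA libraries differed more for members than for other transcripts. Library 1 was above library 2 in 35 of 44 members (79.5%, in 14 runs), against 53.7% of all transcripts of at least 2 CPM, and the median ratio was 1.22 against 1.01. The ratio was highest in uc010xrj.3 (1.86), and it was 1.47 to 1.48 in the 4 companions of uc002mti.4. The limit was set on the lower of these libraries. Without library 1, 90 transcripts met the rule, and without library 2, 75 did. All 44 were kept each time, but the rule fixed this in advance. Leaving out a library cannot lower the value that the limit uses, and every member had at least 2 CPM in each wild-type library.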

How the data were processed

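The values are counts, deposited by the authors as 1 file per library with the same 182398 transcript rows and a listed length of unstated unit. CASAVA 1.8, TopHat2 2.0.9, Bowtie2 2.1.0 and the build hg38 are named in the submitters' processing notes. The counting program, its strand setting and its treatment of shared reads are not given in the sources used here, so overlapping, antisense and duplicated transcripts could not be told apart. The RNA libraries came from a stranded TruSeq kit, per the labels' protocols.

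Rows with identical counts in all libraries were merged (66016 kept), and CPM used merged totals. Footprints were fitted with edgeR 4.0.16 in R 4.3.3 (TMM, quasi-likelihood, robust, two-sided) on all 5 footprint libraries. An SE is the size of the log2 change over the square root of F. In simulated counts, 65% of 2-fold (57 of 88) and 95% of 4-fold (72 of 76) reductions were recovered (footprints, knockout mean, 43270 transcripts tested). Lowered transcripts that no longer passed the filter were left out of these shares. The changed transcripts were drawn from all that passed the filter, with the same dispersion for every transcript. These shares are therefore not the power for members, many of which had low footprint counts. DESeq2 1.42.0, other filters, scalings, member limits and left-out libraries were alternatives. Members and lists were chosen with earlier results of these data known. Described in full were the members with the lowest RNA ratio, the longest runs, the highest wild-type RNA, the highest and lowest footprint changes, the limit and the extreme lengths. The rest were grouped by run. Intervals cover counting error only.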

Additional observations from a re-analysis of the deposited data

Results flagged for a closer look

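For 2 of the 26 tested members, edgeR's test of the knockouts against each other found different footprint levels. With 1 member in each direction (3.85%), this was near the shares over all transcripts, 4.54% higher and 3.78% lower in knockout 1. Footprints of uc002mti.4 were higher in knockout 1 by 2.01 on the log2 scale, with 8 and 10 counts in knockout 1 against 3 and 3 in knockout 2. Footprints of uc010axc.2 differed by -1.01 (knockout 1 minus knockout 2), with 16 and 15 counts in knockout 1 against 54 and 33 in knockout 2. Leaving out 1 knockout footprint library at a time ended both calls in 3 of 4 cases.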

How the results depend on the processing

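The share of tested members whose footprints fell stayed within 1.5 times of 69.2% in all alternatives for the knockout mean and for knockout 2. It rested on very few members with a mean of at least 50 counts (2 of 3 fell) and by DESeq2 with its filter on low means (2 of 2). Both times the 2 were uc004eep.4 and uc004eeq.3, which form 1 run with nearly the same counts. For knockout 1, DESeq2 without its filter on low means, an alternative chosen after seeing the data, gave 42.3%. DESeq2 with that filter left an adjusted p for 2 of the 26 members. Within single knockouts, leaving out 1 library took calls below the threshold: uc001gwq.5 and uc002mti.4 for knockout 1 without its replicate 1 (edgeR adjusted p up to 0.0907), uc001gwq.5 and uc003uvo.5 without its replicate 2 (up to 0.0904), and uc001gwq.5 for knockout 2 without its replicate 2 (0.0961). In comparisons with wild type, 3 called members (uc060kxg.1, uc060kxt.1 and uc002mti.4) had too few counts to be tested without replicate 2 of knockout 1, which left 13 of 18 calls for knockout 1, and uc001gwq.5 had too few without replicate 1 of knockout 2. Of all transcripts, 4.54% were higher and 3.78% lower in knockout 1 than in knockout 2, near the 3.85% of tested members each way. For knockout 1 against knockout 2 the share of members in either direction was 7.69%. It was 0% by DESeq2 either way and with a mean of at least 50 counts, 18.2% with 1 member per run, and 0% to 4.35% without 1 library. The replicate block gave 4.55% (1 of 22 tested). The replicate numbers did not pair the knockouts (r = -0.00242 across 44410 transcripts), and the wild-type footprint library has no number, so the block was fitted to the knockouts only. The median footprint change of -2.13 became -1.72 with 1 member per run and with a mean of at least 50 counts, -2.83 for a 50% limit and -2.78 for members of at least 5 CPM, and ranged from -2.58 to -1.86 without 1 library. The 44 members became 87 at a 70% limit, 73 at 1 CPM, 17 at 5 CPM, and 45 to 90 without 1 RNA library. The median listed length of 593 became 624.5 with 1 member per run, 531 and 539 at limits of 50% and 70%, and 496 at 5 CPM. The median footprint change stayed negative in all of its alternatives. The other results are shares, counts and lengths, which have no direction to reverse. Depth limits the footprints, since 13 members had fewer than 10 wild-type counts, as does the single wild-type library.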
